A study of Mus musculus with 9 samples.

Results

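Fabp4, Fabp5, Cd36, Gpihbp1, Lpl, Pparg and Adipoq are 7 genes of fatty acid uptake in capillaries and fat, and they were followed in purified blood stem cells. They are 7 of the 22322 genes of the deposited table, taken by symbol. They had been chosen by their values across these same 9 libraries, so their levels and differences are given as descriptions without a p-value.

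The libraries came from long-term haematopoietic stem cells (LT-HSCs), the bone marrow cells that sustain blood formation for life, gated on CD150+, CD48- and CD135- within the Lin-, c-Kit+ and Sca-1+ fraction. All mice were C57BL/6 and 6 to 8 weeks old. The 3 genotypes compared, with 3 mice each, were wild type (WT), mice without the chemokine gene Cxcl10 (Cxcl10-/-) and mice without its receptor gene Cxcr3 (Cxcr3-/-). Every library held 500 to 800 sorted cells of 1 mouse, whose RNA was amplified before sequencing, and the labels give no treatment and no further allele.

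In tissues that burn or store fat, triglyceride in the blood is split on the capillary wall by lipoprotein lipase, encoded by Lpl. The lipase is held there by the endothelial protein GPIHBP1, and the scavenger receptor CD36 takes up the released fatty acids. Inside the cell the binding proteins FABP4 and FABP5 carry them. PPARG is a nuclear receptor that pairs with retinoid X receptors and drives fat cell formation, with Fabp4, Cd36, Lpl and Adipoq among its known target genes. Adiponectin, encoded by Adipoq, is a hormone of fat cells, and in mouse marrow Adipoq is also transcribed by leptin receptor-positive reticular cells.

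Promoters were matched for 3 of the 7 genes. They are shown because PPARG is itself in the group and has known targets in it. Each is the 250 bases before an annotated start, from RefSeq on GRCm38.p6, read 5′ to 3′ on the gene's strand. Capitals mark every match, on either strand, to the nuclear receptor hexamer AGGTCA (a full PPAR element is a repeated pair of it), the AP-1 site TGANTCA, the TATA box TATAAA or the GATA site AGATAA. The Cd36 window is chr5:17835897-17836146 on the minus strand. The Pparg window is chr6:115362099-115362348 on the plus strand and is the one of 3 Pparg windows with matches to 2 motifs. The Adipoq window is chr16:23146286-23146535 on the plus strand.
Cd36: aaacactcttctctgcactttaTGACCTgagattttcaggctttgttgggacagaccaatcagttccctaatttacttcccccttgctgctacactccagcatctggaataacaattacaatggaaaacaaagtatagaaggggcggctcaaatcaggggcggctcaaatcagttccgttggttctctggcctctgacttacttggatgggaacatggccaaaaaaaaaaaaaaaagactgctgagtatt
Pparg: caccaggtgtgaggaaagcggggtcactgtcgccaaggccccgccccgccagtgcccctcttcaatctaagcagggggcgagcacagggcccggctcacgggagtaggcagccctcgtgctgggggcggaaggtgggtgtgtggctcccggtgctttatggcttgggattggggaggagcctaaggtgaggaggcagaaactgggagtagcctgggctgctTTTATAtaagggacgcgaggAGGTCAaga
Adipoq: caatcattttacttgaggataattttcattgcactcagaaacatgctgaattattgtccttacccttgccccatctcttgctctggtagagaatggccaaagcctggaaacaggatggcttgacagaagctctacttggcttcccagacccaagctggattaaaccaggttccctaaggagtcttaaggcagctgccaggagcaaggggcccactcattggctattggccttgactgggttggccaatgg
The Cd36 window holds a single AGGTCA hexamer on the opposite strand that begins at position -228, counted back from the gene start. The Pparg window holds a single AGGTCA hexamer at -9 and, on the opposite strand, a TATA box at -29. The Adipoq window holds no match to these letters. Of 32851 promoter windows of this length, 14.0% hold AGGTCA, 6.75% TGANTCA, 12.4% TATAAA and 9.99% AGATAA. A match describes the letters only.

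The deposited levels are FPKM, fragment counts scaled to transcript length and library size, which allow levels of different genes to be compared. Expected counts summed to between 12098498 and 17904629 per library. All 7 genes passed the filter of a mean of 1 FPKM over the 9 libraries, as did 10866 genes in all. Adipoq and Pparg passed it only through their Cxcl10-/- level. Adipoq had means of 0 FPKM in WT, 0.09 in Cxcr3-/- and 7.74 in Cxcl10-/-, and Pparg of 1.01, 0.347 and 5.17. The filter thus favoured a high Cxcl10-/- group for these genes. Mitochondrial transcripts took 12.6 to 13.1% of the counts in WT, 3.57 to 4.13% in Cxcl10-/- and 10.2 to 11.2% in Cxcr3-/-. Between 12561 and 13910 genes were above 0 in the Cxcl10-/- libraries, fewer than the 14510 to 16023 in WT. Cxcl10 had 0 counts in every Cxcl10-/- library, against 36, 84 and 3 in WT and 112, 553 and 176 in Cxcr3-/-. Cxcr3 had 8 counts in WT replicate 3 and 0 in the other 8 libraries, so its level does not check the Cxcr3-/- label.

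In WT stem cells the group was mostly Fabp5. Its mean of 58.6 ± 10.4 FPKM (SD, n = 3) stood above Fabp4 at 9.94 ± 7.18 and Lpl at 1.82 ± 0.676. Gpihbp1 (1.02 ± 1.62), Pparg (1.01 ± 0.90) and Cd36 (0.877 ± 0.595) followed and did not differ beyond their spread. Adipoq was at 0 in all 3 WT libraries. Cxcr3-/- cells kept Fabp5 first, at 62.1 ± 8.95 FPKM, and Fabp4 second, at 20.1 ± 14.3. In Cxcl10-/- cells the order of the first 2 was turned: Fabp4 stood at 361 ± 85.6 FPKM and Fabp5 at 54.6 ± 26.9. Gpihbp1 had a mean of 40.95 ± 27.9 FPKM, which did not differ from Fabp5 beyond their spread. In Cxcl10-/- replicate 1 Gpihbp1 was the higher of these, at 35.23 against 23.7 FPKM. Below Gpihbp1, Cd36 (11.9 ± 7.95), Lpl (7.92 ± 8.48), Adipoq (7.74 ± 12.2) and Pparg (5.17 ± 3.72) lay within their own spread of each other.

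**Figure D1:**
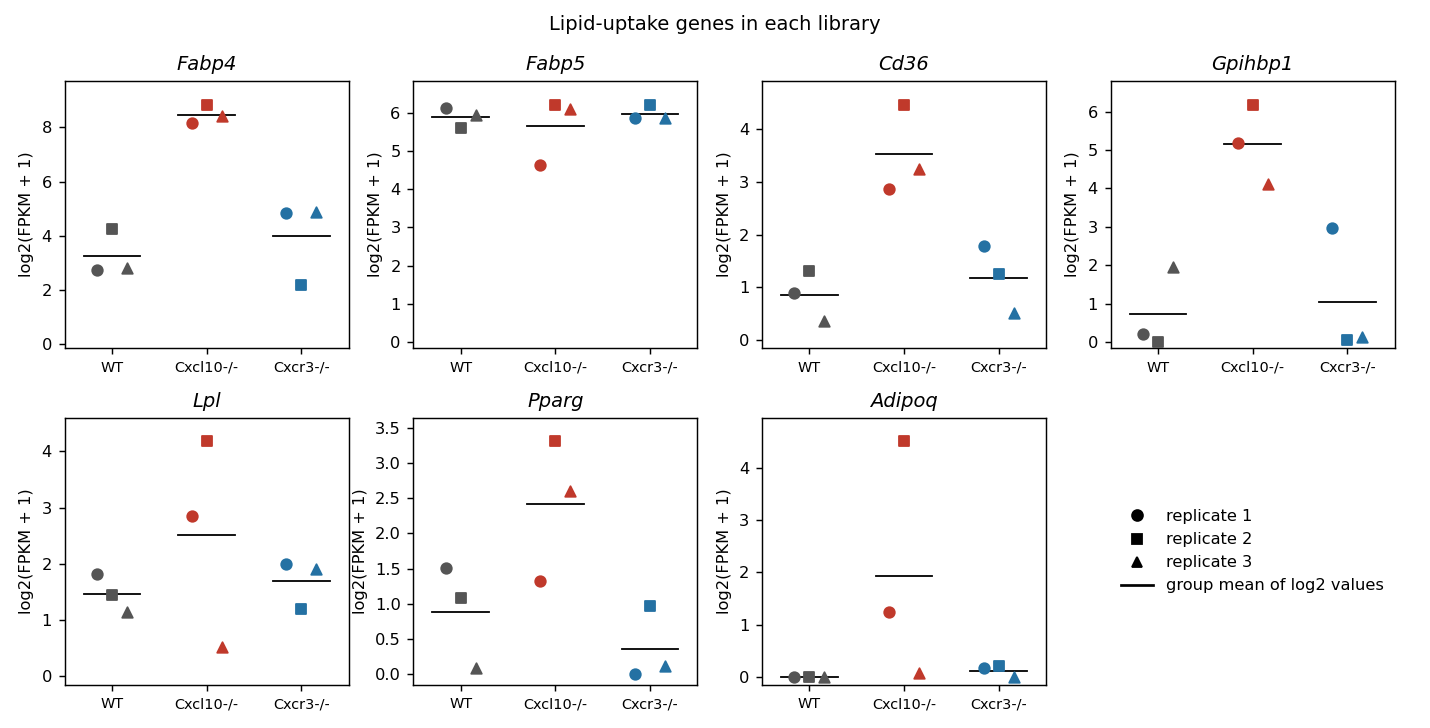
The level of each gene in each library, as log2(FPKM + 1), by genotype; markers give the replicate and lines the group mean of the log2 values, and the panels have separate axes. Fabp4, Cd36 and Gpihbp1 stood higher in every Cxcl10-/- library than in any of the other 6, while Fabp5 overlapped between the genotypes.

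The intracellular fatty acid carriers came apart. Fabp4, the carrier of fat cells, capillary endothelium and macrophages, stood at 5.67, 18.22 and 5.92 FPKM in WT. It reached 287.13, 454.75 and 340.83 FPKM in Cxcl10-/-, from 3486 to 5757 counts, and 27.98, 3.59 and 28.69 in Cxcr3-/-. The lowest Cxcl10-/- value lay far above the highest of the other 6 libraries, and the Cxcr3-/- values lay on both sides of the WT range. Among all genes of a Cxcl10-/- library Fabp4 ranked between 332 and 492 by FPKM, against 3728 to 7050 in WT. The fitted difference from WT was 5.21 ± 0.63 (log2 of FPKM + 1, SE, n = 3 per group), and it lay between 4.95 and 5.71 when any 1 library was left out. Fabp5, the more widely expressed relative, stood at 67.91, 47.43 and 60.44 FPKM in WT. Its Cxcl10-/- values were 23.7, 72.64 and 67.36 and its Cxcr3-/- values 56.49, 72.4 and 57.36. All 3 genotypes overlapped for Fabp5. Its difference between Cxcl10-/- and WT was -0.24 ± 0.36 on the log2 scale, and it turned to 0.27 without Cxcl10-/- replicate 1. The ratio of Fabp4 to Fabp5 in FPKM was 0.0835, 0.384 and 0.0980 in WT, 12.1, 6.26 and 5.06 in Cxcl10-/-, and 0.495, 0.0496 and 0.500 in Cxcr3-/-. Fabp4 thus exceeded Fabp5 in the 3 Cxcl10-/- libraries and in none of the other 6. Fabp5 shares 31-base words with transcripts of 21 other genes in GENCODE M21, at most 7.24% of its words with one of them, so its level may include reads of related sequences or lose reads to them. Fabp4 also shares words with 21 other genes, at most 0.111% of its words with one of them. Fabp4 and Fabp5 share no such word with each other.

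At the capillary surface, Cd36 and Gpihbp1 were both higher in Cxcl10-/-. Cd36, which takes up fatty acids in endothelium, fat cells and macrophages, stood at 0.86, 1.48 and 0.29 FPKM in WT. It stood at 6.3, 21.0 and 8.39 FPKM in Cxcl10-/- and at 2.42, 1.39 and 0.42 in Cxcr3-/-. The lowest Cxcl10-/- library was above the highest of the other 6. The difference from WT was 2.66 ± 0.51 (log2, SE), and 2.19 without Cxcl10-/- replicate 2. Gpihbp1, which carries the lipase to the capillary lumen, was at 0.17, 0 and 2.88 FPKM in WT. Its levels were 35.23, 71.24 and 16.38 FPKM in Cxcl10-/-, from 181 to 812 counts. In Cxcr3-/- they were 6.9, 0.04 and 0.1, so that 1 library carried nearly the whole group mean. The difference of Cxcl10-/- from WT was 4.43 ± 0.81 (log2, SE), and 3.92 without Cxcl10-/- replicate 2. Gpihbp1 and Fabp4 did not go together outside the Cxcl10-/- group. Cxcr3-/- replicates 1 and 3 had nearly equal Fabp4 (27.98 and 28.69 FPKM), with Gpihbp1 at 6.9 in one and 0.1 in the other. WT replicate 2 had the highest WT level of Fabp4 and no Gpihbp1.

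Lpl, the lipase itself, is made by parenchymal cells such as fat and muscle cells and by macrophages. It stood at 2.54, 1.71 and 1.2 FPKM in WT and 3.0, 1.29 and 2.76 in Cxcr3-/-. The Cxcl10-/- libraries held both extremes, at 6.2, 17.12 and 0.43 FPKM, so that the groups overlapped. Their difference from WT of 1.05 ± 0.73 (log2, SE) was 0.22 without Cxcl10-/- replicate 2 and 2.05 without replicate 3. In Cxcl10-/- replicate 3, Lpl was the lowest of all 9 libraries while its carrier Gpihbp1 was above every WT and Cxcr3-/- library.

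Pparg and Adipoq, the regulator and the hormone of fat cells, differed widely between mice of 1 genotype. Pparg stood at 1.85, 1.11 and 0.06 FPKM in WT, 1.5, 8.93 and 5.07 in Cxcl10-/- and 0, 0.96 and 0.08 in Cxcr3-/-. The lowest Cxcl10-/- value lay inside the WT range and above all Cxcr3-/- values. The fitted difference from WT was 1.52 ± 0.57 (log2, SE), and 1.07 without Cxcl10-/- replicate 2. Adipoq had 0 counts in each WT library, 24, 398 and 1 in Cxcl10-/- and 2, 3 and 0 in Cxcr3-/-. In FPKM the Cxcl10-/- libraries stood at 1.37, 21.8 and 0.05, so 1 mouse held most of the signal. The fitted difference of Adipoq from WT was 1.94 ± 0.86 (log2, SE), and 0.66 without Cxcl10-/- replicate 2. Set against a floor of 3 counts over the WT group, the pooled Adipoq level was at least 154-fold higher in Cxcl10-/-. Without Cxcl10-/- replicate 2 it was at least 13.5-fold higher, which rests on the 24 counts of replicate 1, as replicate 3 held 1. The floor covers counting error only, and the Cxcr3-/- counts are too few for a fold.

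Each of the 7 genes had its highest FPKM of the 9 libraries in Cxcl10-/- replicate 2, but nothing is read from this count of chosen genes. For Fabp5 it was a near tie, at 72.64 FPKM from 1013 counts against 72.4 from 1134 in Cxcr3-/- replicate 2. How far Cxcl10-/- replicate 2 exceeded the other mice of its genotype differed from gene to gene. For Fabp4 it stood 1.58 times above replicate 1 and 1.33 times above replicate 3. For Cd36 these ratios were 3.33 and 2.50, and for Gpihbp1 2.02 and 4.35. Lpl gave 2.76 and 39.8 and Adipoq 15.9 and 436, the last resting on 1 count in replicate 3. The order of replicates 1 and 3 was not shared either: Fabp4, Fabp5, Cd36 and Pparg were lower in replicate 1, and Gpihbp1, Lpl and Adipoq in replicate 3. The levels of the 7 genes summed to 361, 667.5 and 438.5 FPKM in Cxcl10-/-, 79.0, 69.95 and 70.8 in WT and 96.9, 79.8 and 89.4 in Cxcr3-/-. Fabp4 made up 68.1 to 79.4% of that sum in Cxcl10-/- and 7.18 to 26.1% in WT.

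Genotypes were compared across all 10866 genes with limma, and a gene was called at a Benjamini-Hochberg adjusted p under 0.05. Against WT, 3 members (Fabp4, Cd36 and Gpihbp1) were called higher in Cxcl10-/- and 0 lower. Of all genes tested, 6.10% were called higher and 3.18% lower. Nothing is read from the members' counts in any of the 3 comparisons, because the members were chosen by their values over the 3 genotypes. edgeR on the expected counts also called 3 higher, with Adipoq in place of Gpihbp1, beside 3.52% of all genes. The libraries of the 2 groups did not overlap for 4 members and for 30.3% of all genes in either direction. Adipoq was the fourth, apart by the 1 count of Cxcl10-/- replicate 3 against 0 in WT. Cxcr3-/- against WT gave no called member, beside 0% of all genes higher and 0% lower. There, 834 genes had an unadjusted p under 0.05, edgeR called 0 genes and DESeq2 68. The members' differences in this comparison lay between -0.53 ± 0.57 for Pparg and 0.72 ± 0.63 for Fabp4 (log2, SE), and 0 members had groups apart, against 19.8% of all genes. Cxcr3-/- against Cxcl10-/- gave 4 members called lower (Fabp4, Cd36, Gpihbp1 and Pparg) and 0 higher, beside 7.81% and 4.69% of all genes. edgeR called 2 of them lower, Fabp4 and Cd36, beside 5.41%. The differences were -4.49 for Fabp4, -4.10 for Gpihbp1, -2.34 for Cd36 and -2.05 for Pparg on the log2 scale. The same 4 members had groups apart, against 29.1% of all genes. Both knockout comparisons with WT share the WT libraries, and the last shares the Cxcl10-/- libraries with the first.

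**Figure D2:**
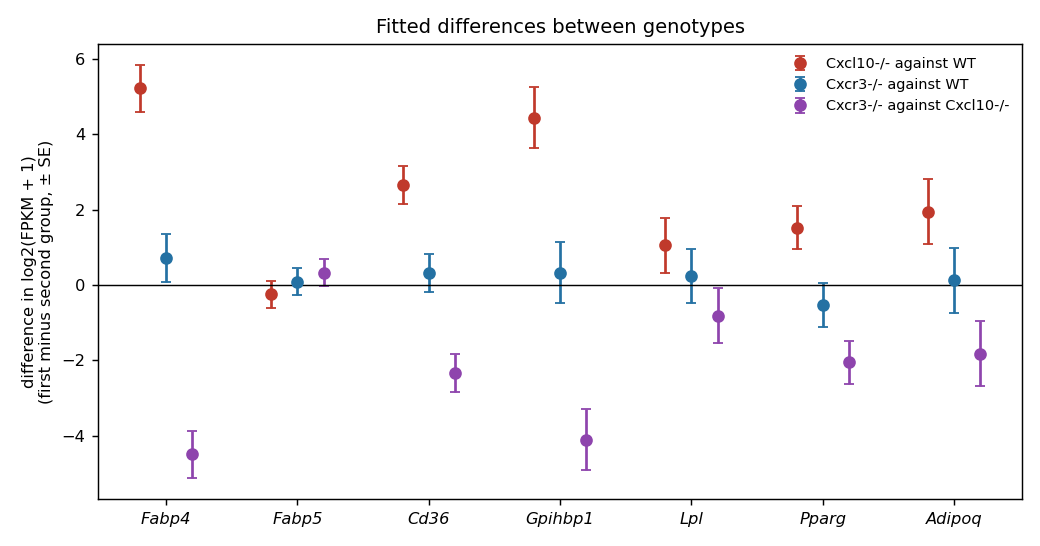
Fitted differences in log2(FPKM + 1) between genotypes for the 7 genes, first-named minus second-named group, with bars of 1 SE and 3 libraries per group. Fabp4 and Gpihbp1 lay at 5.21 and 4.43 for Cxcl10-/- against WT, and each Cxcr3-/- against WT value lay between -0.53 and 0.72.

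The share of higher and lower calls over all genes depended on the scaling, while no called member changed its direction under any alternative. Of the genes called between Cxcl10-/- and WT, 65.8% were higher in Cxcl10-/- by FPKM, 46.9% after quantile normalization, 36.8% with mitochondrial genes left out and the rest rescaled, 48.8% with edgeR and 47.9% with DESeq2. For Cxcr3-/- against Cxcl10-/- the shares higher in Cxcr3-/- were 37.5%, 53.9%, 60.0%, 48.5% and 47.4%. Leaving out the mitochondrial genes moved the median difference of all genes from 0.08 to -0.12 between Cxcl10-/- and WT (log2).

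Genes were then ranked by how closely their profile over the 9 libraries followed that of a member, as the root mean square difference of centred log2 values. The closest to Fabp4 was Depp1, with a difference of 0.445 where Fabp4 itself varied by 2.46, followed by Ackr1 (0.755), the atypical chemokine receptor of venules, and the immediate early factor Egr1 (0.783). Rarres2 (0.786), which encodes chemerin, and Lrg1 (0.867) completed the 5. The closest to Gpihbp1 were Fam167b (0.75), the adhesion molecule gene Vcam1 (0.867), Sparc (0.90) and Ibsp (0.937), which encode matrix proteins of bone, and the sinusoidal scavenger receptor gene Stab1 (0.938). These profiles shared the high Cxcl10-/- group: Depp1, for example, stood at 31.64, 43.99 and 49.73 FPKM there and at most 4.64 elsewhere. Adipoq was followed most closely by Ms4a4d (0.415), the chemokine gene Ccl7 (0.436), Hp (0.444), which encodes haptoglobin, and Sfrp4 (0.587), a secreted regulator of Wnt signalling. These 4 were high in Cxcl10-/- replicate 2 alone, with Hp at 42.1 FPKM there and at most 0.75 in any other library. The nearest profiles to Lpl, whose own variation was 1.02, were those of R3hcc1l (0.383), the syndecan gene Sdc4 (0.443), the DNA ligase gene Lig4 (0.456), Shkbp1 (0.463) and Ugt1a7c (0.467). Likeness over 9 libraries describes these profiles, which share library and depth.

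The wider lipid pathway was followed with 8 lists of 134 symbols that leave out the members, of which 75 genes were tested. Between Cxcl10-/- and WT, 5 rose and 0 fell in limma, beside 6.10% and 3.18% of all genes, so the share that rose stood near the background. The median difference was 0.105 over the 75 genes and 0.08 over all genes (log2). edgeR called 5 of the 75 and DESeq2 10. The lists were written with earlier results of these data known.

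Mitochondrial fatty acid oxidation held 2 of the 5, of 19 tested. Etfb, a subunit of the flavoprotein that passes electrons from acyl-CoA dehydrogenases, stood at 436.76, 381.14 and 383.74 FPKM in WT and 754.61, 963.06 and 1073.29 in Cxcl10-/-. It rose by 1.20 ± 0.18 (log2, SE; limma adjusted p = 0.00257). Acot2, a mitochondrial acyl-CoA thioesterase, rose by 1.31 ± 0.30 (adjusted p = 0.0207), from 10.5 ± 2.02 to 27.5 ± 4.63 FPKM (SD, n = 3). Acot2 was no longer called when WT replicate 2 (adjusted p = 0.0938) or 3 (0.0793) was left out. Etfa, the partner subunit of Etfb, was at 124.5 FPKM in WT and 141.8 in Cxcl10-/- and did not pass (adjusted p = 0.756).

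Among the 7 tested genes of the lipase system, Apoe passed. It encodes a ligand of lipoprotein receptors and stood at 102.17, 129.32 and 138.28 FPKM in WT and 221.38, 291.29 and 213.94 in Cxcl10-/-. It rose by 0.97 ± 0.19 (log2, SE; limma adjusted p = 0.0104), but not past the threshold without WT replicate 1 (0.0551). Sel1l and Lmf2, which act in the maturation of the lipase, did not pass (adjusted p = 0.932 and 0.986), with differences of -0.06 and 0.01.

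Cebpb, a transcription factor that precedes PPARG in fat cell formation, was the one of 11 tested partners of PPARG that passed. It stood at 0.79, 2.22 and 1.75 FPKM in WT and 8.88, 10.54 and 8.01 in Cxcl10-/-, a rise of 2.01 ± 0.36 (adjusted p = 0.00664). edgeR gave 0.0527. The corepressor gene Ncor1 and the coactivator gene Med1 did not pass, with differences of 0.43 and 0.23.

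Of 14 tested genes of triglyceride storage and lipolysis, G0s2 passed. It encodes an inhibitor of adipose triglyceride lipase and rose by 1.94 ± 0.53 (log2, SE; adjusted p = 0.0408). edgeR gave 0.299, and the call ended in 8 of the 9 fits that leave out 1 library, all but that without Cxcl10-/- replicate 2, with adjusted p up to 0.156. The droplet-associated gene Hilpda did not pass, with 67.3 FPKM in WT and 76.1 in Cxcl10-/-.

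The other 4 lists, of binding proteins, transport and activation, lipoprotein receptors and adiponectin receptors, held no gene called by limma in this comparison. At an unadjusted p under 0.05 they held 1, 4, 1 and 1 genes, and edgeR called 0, 1, 0 and 1. Fatty acid transport and activation (11 tested) included the acyl-CoA binding protein gene Dbi, at 818 ± 50.4 FPKM in WT and 1072 ± 155 in Cxcl10-/- (SD, n = 3; limma adjusted p = 0.0892), a difference of 0.38 that was 0.07 to 0.16 under the other scalings of FPKM. Among 6 lipoprotein receptors, Scarb2 and Vldlr had differences of 0.01 and -0.24. The adiponectin receptor gene Adipor2 was at 29.8 ± 1.66 FPKM in WT and 18.97 ± 1.45 in Cxcl10-/- (limma adjusted p = 0.0821), a difference that edgeR called at 0.0288.

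**Figure D3:**
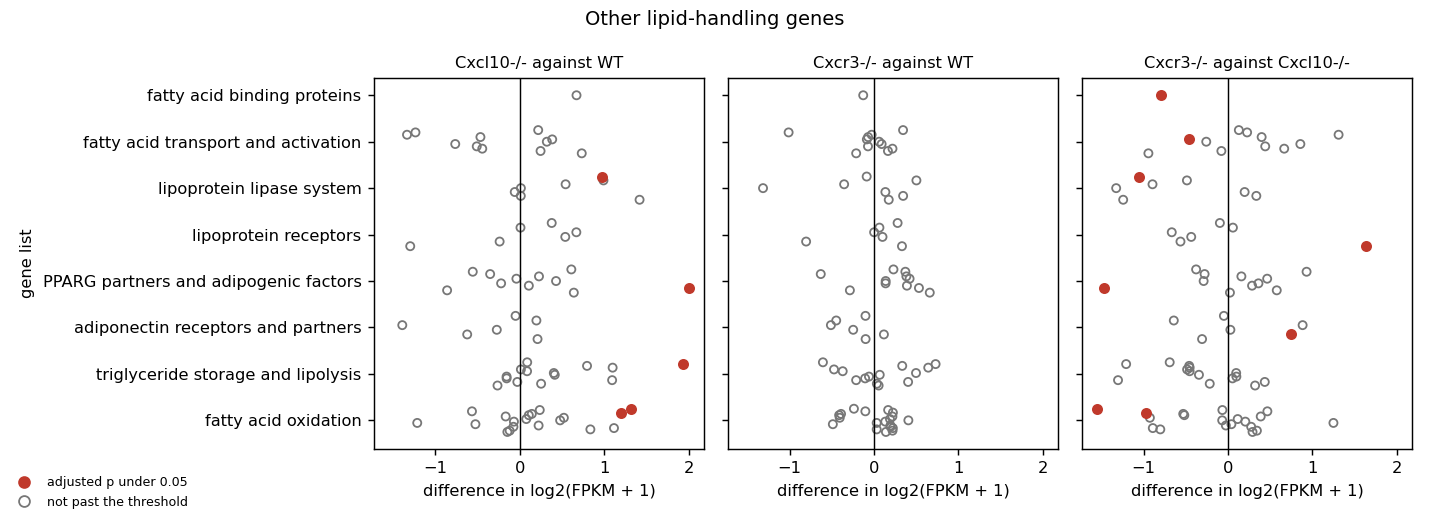
Differences in log2(FPKM + 1) for the 75 tested genes of the 8 lipid-handling lists, 1 panel per comparison; filled points had a limma adjusted p under 0.05. For Cxcl10-/- against WT 5 points are filled, all to the right of 0, for Cxcr3-/- against WT none, and for Cxcr3-/- against Cxcl10-/- 8, of which 6 lie to the left.

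Between Cxcr3-/- and WT, 0 of the 75 genes passed in limma, with 2 at an unadjusted p under 0.05, and edgeR and DESeq2 also called 0. Between Cxcr3-/- and Cxcl10-/-, 6 fell and 2 rose, beside 7.81% and 4.69% of all genes. Apoe fell by 1.05 ± 0.19 (adjusted p = 0.00544), Etfb by 0.98 ± 0.18 (0.00545) and Acot2 by 1.55 ± 0.30 (0.00788) on the log2 scale in limma. Cebpb and Dbi also fell, by 1.47 and 0.47, with edgeR adjusted p of 0.120 and 0.0781. Cebpb did not pass without Cxcr3-/- replicate 1 or 3 (adjusted p up to 0.0839). Dbi passed only with all libraries or without Cxcl10-/- replicate 2 or 3 or Cxcr3-/- replicate 3, and otherwise reached 0.118. Its difference shrank to between -0.27 and -0.22 under the other scalings of FPKM (quantile normalization, and mitochondrial genes left out). Adipor2 rose by 0.74 ± 0.21 (limma adjusted p = 0.0384), to 32.4 ± 2.62 FPKM in Cxcr3-/-. The call of Adipor2 ended in 8 of the 9 fits without 1 library, all but that without Cxcl10-/- replicate 1, with adjusted p up to 0.129.

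Markers of the cell types that use these genes were measured in the same libraries. The 14 LT-HSC markers were above 1 FPKM in every group and summed to 923 to 1049 FPKM in WT, 873.8 to 1045 in Cxcl10-/- and 932.8 to 971.9 in Cxcr3-/-. One of them, Slamf1, which encodes the sorted antigen CD150, was at 6.50 ± 1.13 FPKM in WT and 1.84 ± 1.98 in Cxcl10-/- and fell by 1.60 ± 0.45 (log2, SE; limma adjusted p = 0.0458). edgeR gave 0.119, and the call held in 1 of the 9 fits without 1 library, that without Cxcl10-/- replicate 3, with adjusted p up to 0.158 in the others.

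The 17 endothelial markers summed to 350 to 382 FPKM in Cxcl10-/-, against 111 to 151.5 in WT and 111 to 153 in Cxcr3-/-. Of 15 tested, 9 rose and 0 fell against WT, beside 6.10% and 3.18% of all genes, and edgeR called 5. Stab1 stood at 0.19, 0.60 and 1.90 FPKM in WT and 61.81, 53.71 and 40.11 in Cxcl10-/-, a rise of 4.88 ± 0.41 (limma adjusted p = 8.22e-05). Ackr1 (4.59 ± 0.55), the tight junction gene Cldn5 (3.42 ± 0.42) and Stab2 (2.52 ± 0.38), a scavenger receptor of sinusoids, rose as well, with adjusted p of 0.00111, 0.00118 and 0.00282. The rise was not shared by all: Emcn and Esam had the highest mean level of the tested markers that did not pass. No endothelial marker was at 0 in all 3 libraries of any group, and 9 of the 17 had a mean under 1 FPKM in WT, Stab1, Stab2 and Cldn5 among them. Against Cxcl10-/-, 7 of the 15 fell in Cxcr3-/-, beside 7.81% of all genes, while Egfl7 and Emcn were the highest-level ones that did not pass. In Cxcr3-/- 7 of the 17 markers had a mean under 1 FPKM, all of them also under 1 in WT. Those of the 7 that were tested passed the filter only through their Cxcl10-/- level. The filter thus favoured a high Cxcl10-/- group, and neither count can be weighed against the share of all genes. Fabp4, Cd36 and Gpihbp1 were high in the same 3 libraries as this sum. Across the 3 Cxcl10-/- mice the summed members ranged from 361 to 667.5 FPKM.

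The 15 markers of reticular stroma summed to 36.0 to 189.5 FPKM in Cxcl10-/-, against 2.48 to 7.12 in WT and 3.5 to 7.8 in Cxcr3-/-. Of 3 tested, Vcam1 rose by 3.26 ± 0.48 and Cxcl12, the chemokine that retains stem cells in marrow, by 4.35 ± 0.73 (limma adjusted p = 0.00255 and 0.00478). The Cxcl10-/- libraries held 14.06, 118.93 and 10.81 FPKM of Cxcl12, with replicate 2 the highest, as for each of the 7 members. The third tested gene, Lepr, the leptin receptor, stood at 1.01, 8.68 and 0.33 FPKM in Cxcl10-/- and at 1.47, 0.07 and 0.64 in WT. It did not pass (limma adjusted p = 0.443). In WT and in Cxcr3-/- 14 of the 15 markers had a mean under 1 FPKM, and in Cxcl10-/- 8. Lepr, Cxcl12, Kitl, Dcn, Igfbp5 and Col1a2 were under 1 in both other genotypes and above 1 in Cxcl10-/-, while Col1a1, Col3a1, Pdgfra, Pdgfrb, Foxc1, Ebf3, Lum and Grem1 stayed under 1 in all 3. Cxcl12 and Lepr thus passed the filter only through their Cxcl10-/- level, and nothing is read from how many of the 3 tested genes rose.

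The 12 fat cell markers summed to 20.4 to 29.3 FPKM in Cxcl10-/-, 12.2 to 18.6 in WT and 20.2 to 29.8 in Cxcr3-/-, and 0 of the 3 tested passed in limma (1 at an unadjusted p under 0.05, edgeR and DESeq2 0). In the Cxcl10-/- libraries Cidec, Adrb3 and Lep were at 0 in all 3. There 9 of the 12 had a mean under 1 FPKM, Plin1, Lipe and Retn among them. The other genotypes were alike, with 10 of the 12 under 1 FPKM in WT and 9 in Cxcr3-/-. Cidec, Adrb3, Lep, Plin1, Lipe and Retn were among them in both. Slc7a10 was at 0 in all WT and Cxcr3-/- libraries, and Adrb3 in all WT libraries. The 15 macrophage markers summed to 414 to 476.8 FPKM in Cxcl10-/-, 564.7 to 696.1 in WT and 227.6 to 416.5 in Cxcr3-/-. Among 8 tested, Mrc1 rose in Cxcl10-/- (1.97 ± 0.44, limma adjusted p = 0.0177; not past without WT replicate 1, 2 or 3, 0.0563 to 0.0845). Lyz2 and Cd68 had the highest mean level of the tested macrophage markers that did not pass against WT. Adgre1 and Timd4 were at 0 in all 3 Cxcl10-/- libraries, and both had a mean under 1 FPKM in WT and in Cxcr3-/-. Timd4 was at 0 in all Cxcr3-/- libraries as well. Erythroid markers (10 genes) summed to 106.4 to 640 FPKM in Cxcl10-/-, 56.1 to 106.4 in WT and 68.2 to 74.6 in Cxcr3-/-, with Hba-a1 up by 2.77 ± 0.56 (0.0115; 0.0515 without WT replicate 1). In the same order, neutrophil markers (10 genes) summed to 26.1 to 186.3, 20.7 to 33.9 and 19.9 to 36.4 FPKM, and megakaryocyte markers (10 genes) to 271 to 431.7, 285.8 to 394.4 and 463.8 to 581.3. Against WT, limma and edgeR called 0 genes of these 2 lists in Cxcl10-/-, with 1 and 2 at an unadjusted p under 0.05. The part of these cell types in the members' levels was not tested. In libraries of 500 to 800 pooled cells, more cells of another type and more RNA per cell cannot be told apart.

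**Figure D4:**
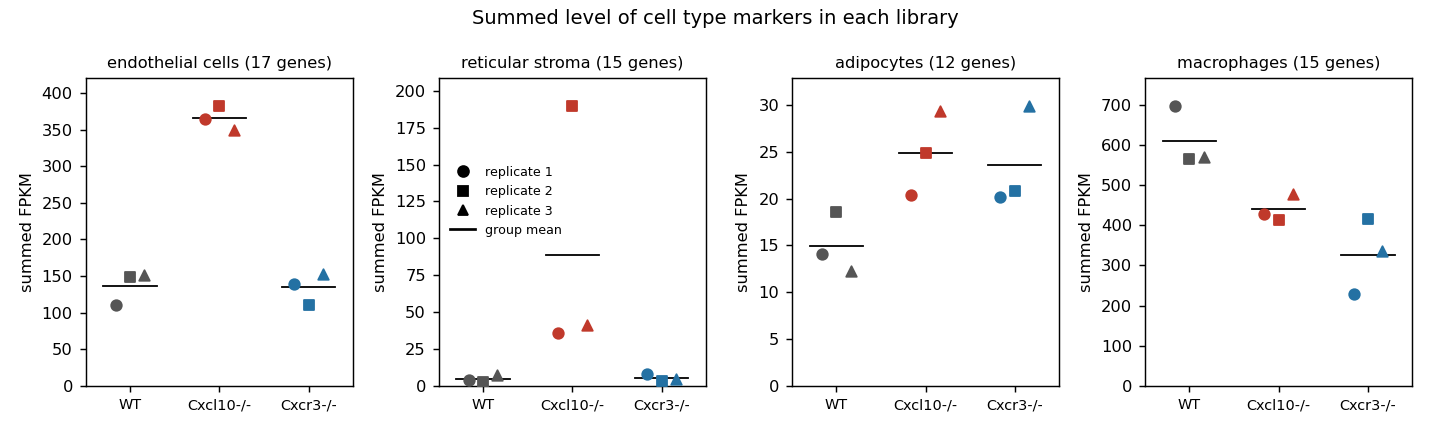
Summed FPKM of the markers of 4 cell types in each library, by genotype; markers give the replicate, lines the group mean, and each axis starts at 0. The endothelial sums of the Cxcl10-/- libraries lay between 350 and 382, above all others, and the stromal sum reached 189.5 in Cxcl10-/- replicate 2.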

How the data were processed

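RNA of 9 LT-HSC libraries (3 WT, 3 Cxcl10-/-, 3 Cxcr3-/-) was analysed from 1 deposited table of 22322 genes. Per the file headers, the authors gave FPKM and counts for each library. The deposited counts were treated like the expected counts of RSEM, since 87.1% of them are whole numbers and others hold decimals. RSEM, HISAT2, StringTie and fastp appear in the submitters' processing notes. For genome build, annotation, versions and strand: not given in the sources used here. Reads of antisense partners cannot be told apart.

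Genes averaging 1 FPKM or more were analysed on the log2(FPKM + 1) scale, where changes of low genes are understated. limma 3.58.1 (R 4.3.3) fitted the 3 genotype means over all 9 libraries, with an intensity trend and Benjamini-Hochberg adjustment. edgeR 4.0.16 (quasi-likelihood) and DESeq2 1.42.0 were run on these expected counts after rounding. The fit was tested on simulated data. Replicates are separate mice. No replicate block was used. Other pseudocounts, filters and scalings, and the loss of each library, were tried.

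The members and the gene lists were chosen with earlier results of these data known. Of each list and comparison, up to 4 genes past the threshold and up to 2 others with the highest level were open to naming, and for Fabp4, Gpihbp1, Lpl and Adipoq the 5 genes of most similar profile; some genes picked by the rule are not reported here. List members named as at 0 or under 1 FPKM were chosen after their values were seen. Word sharing was computed from GENCODE M21 transcripts with words of 31 bases. Counts carry no molecular identifiers, so floors cover counting error only.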

Additional observations from a re-analysis of the deposited data

How the results depend on the processing

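The members' differences were recomputed under 19 alternatives: of 387 values 365 moved by less than 1 SD between replicates, 22 moved further and 0 called values reversed. In 8 the sign turned, for Fabp5, Gpihbp1 and Lpl in comparisons where they were not called; Gpihbp1 between Cxcr3-/- and WT, for example, went from 0.33 to -0.63 without Cxcr3-/- replicate 1. The called genes between Cxcl10-/- and WT numbered 1008, 588 with no filter, and 282 to 1192 with 1 library left out (362, 282 and 413 without WT replicate 1, 2 and 3). For Cxcr3-/- against Cxcl10-/- they numbered 1359, 819 with no filter, 618 with only those groups fitted, and 596 to 1532 with 1 library left out (596 without Cxcr3-/- replicate 1, 754 without replicate 3). For Cxcr3-/- against WT they numbered 0, 68 with DESeq2, and 0 to 1 with 1 library left out. Of the lipid lists, the 5 genes called between Cxcl10-/- and WT became 10 with DESeq2 and 3 to 10 with 1 library left out (10 without Cxcl10-/- replicate 1, 3 without any WT library). The 8 called between Cxcr3-/- and Cxcl10-/- became 13 with DESeq2, 3 with only those groups fitted, and 3 to 13 with 1 library left out (13 without Cxcl10-/- replicate 1, 3 without Cxcr3-/- replicate 1). The cause was not tested. With a replicate block the counts over all genes were 810, 0 and 1118 and over the lists 5, 0 and 7; same-numbered libraries of different genotypes did not deviate together (correlations of -0.086 to 0.031), so they share only a number. Depth limits Adipoq and Gpihbp1 in WT and Cxcr3-/-, where most libraries held under 5 counts.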
